A study of Mus musculus with 29 samples.

Results

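The 4 RNA libraries of mouse Treg cultures that carried a guide RNA against Smad3 were compared with the 4 libraries of the same experiment that carried none. They were chosen by their titles, and they are 4 of the 8 libraries of the Smad experiment and 4 of the 29 samples of the series. The group with a Smad3 guide held 2 sgSmad3 libraries and 2 sgSmad2/3 libraries, which had guides against both genes. The group without one held 2 sgSmad2 libraries and 2 control libraries, whose titles name no guide. Whether control cells received a guide that cuts nothing is not stated. All 8 cultures began as naive CD4 T cells from the spleen of C57BL/6 mice and were kept for 5 days in IL-2 (15 ng/ml) and human TGF-beta (10 ng/ml), so TGF-beta was present in every group. How the guides and the nuclease were delivered, which bases they cut and what share of cells was edited is not given, so each library may hold edited and unedited cells. The series asks what Smad2 and Smad3 do for the expression of Acsl6.

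TGF-beta binds a pair of receptor kinases at the cell surface, and these phosphorylate Smad2 and Smad3. The phosphorylated Smads join Smad4, enter the nucleus and act on genes together with other factors. Smad3 binds DNA directly through its MH1 domain, for which the letters AGAC are the classic site. In CD4 T cells TGF-beta with IL-2 turns on Foxp3, the factor that defines regulatory T (Treg) cells, as well as the integrin Itgae (CD103) and the ectonucleotidase Nt5e (CD73), and it holds back effector genes such as Gzmb.

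The libraries were made from 3' tags, reads near the 3' end of a transcript, and held 1294583 to 1602297 reads. Levels are given as CPM, reads scaled to the library's total, which the authors had rounded to whole numbers, and changes are on the scale of log2(CPM + 1), with the standard error (SE). A difference was called when its limma p, adjusted over 10737 genes, was below 0.05. Whether replicates were separate animals or separate cultures is not stated, so each p reflects library-to-library spread that may be only technical. Ranges over a group of 4 are the lowest and highest library. Foxp3 was present in every library, with 198 and 257 CPM in sgSmad3, 189 and 195 in sgSmad2/3, 214 and 393 in sgSmad2, and 177 and 320 in control. Of 11 B cell markers 1, Ighm, passed the filter on low values (5 CPM or more in at least 2 libraries). Sums of red cell and of myeloid markers were uneven. The red cell sum was 87 and 33 CPM in sgSmad3, 70 and 144 in sgSmad2/3, 26 and 24 in sgSmad2, and 19 and 13 in control, and the myeloid sum was 57 and 10, 22 and 74, 7 and 11, and 5 and 3 CPM in the same order. The first sgSmad3 library and the second sgSmad2/3 library had the highest sums of both. In red cell markers all 4 libraries with a Smad3 guide also lay above all 4 without, so leaving out that pair does not remove this difference. The main counts are also given without that pair.

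Smad3 itself (ENSMUSG00000032402, protein coding, GRCm38.p6 chr9:63646766-63757994) had 26 and 25 CPM in sgSmad3, 41 and 37 in sgSmad2/3, 44 and 56 in sgSmad2, and 30 and 34 in control libraries. The groups with and without the guide overlapped. Their difference was -0.33 (SE 0.16, adjusted p = 0.36). A 3' tag reports the amount of transcript and not whether its reading frame was cut, so these levels do not check the labels. Of the 13 other tested genes that start within 1000 kb of Smad3, none was called. Smad2, the other receptor-regulated Smad of this pathway, had 25 and 30 CPM in sgSmad3, 13 and 18 in sgSmad2/3, 12 and 24 in sgSmad2, and 37 and 29 in control libraries (-0.20, adjusted p = 0.74 for the Smad3 guide).

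With a Smad3 guide, 33 genes were higher and 67 were lower, together 0.931% of the genes tested (0.307% higher and 0.624% lower). The lower genes included Acsl6 and Acsbg1, acyl-CoA synthetases that activate long-chain fatty acids, the costimulatory receptor Cd40, Nt5e, Itgae and the TGF-beta target Pmepa1. The higher genes included the integrin Itgb3, the inhibitors of helix-loop-helix factors Id1 and Id2, the protease Gzmb and the chemokine receptor Ccr2. Of the called genes, 9 were at least 2-fold higher and 30 at least 2-fold lower, with a median of 0.85 among the higher and -0.88 among the lower, while the median of all genes tested was 0.03. In 65 of the 67 lower genes all 4 libraries with the guide lay below all 4 without, as they did in 3.31% of all genes, and in 25 of the 33 higher genes all 4 lay above, as in 3.93% of all genes. The genes were chosen in these same 8 libraries, which favours such separation, so these shares are a description and no further support. The number of calls depended on single libraries. It lay between 9 (without the second sgSmad2/3 library) and 260 (without the second sgSmad2 library) when each was left out in turn, and 6 genes were called in all 8 of these fits (Diaph2, Cd40, Fchsd2, Acsl6, Endod1 and Ubash3b). In 5 or more of the fits 22 genes were called, and 8 genes were called in none. Without the first sgSmad3 and second sgSmad2/3 libraries together, which left 1 library in each of those groups, no gene passed the adjusted test and 782 genes had an unadjusted p below 0.05. The medians of the called genes in that fit were -0.95 for the lower and 0.80 for the higher. Of the 100, 99 still passed the filter and all of these had the same sign, and S100a9 did not pass it. The libraries left in that fit had also been used to choose the 100 genes, which favours kept signs and sizes. In these bulk cultures fewer cells of a type and less RNA per cell cannot be told apart.

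**Figure D1:**
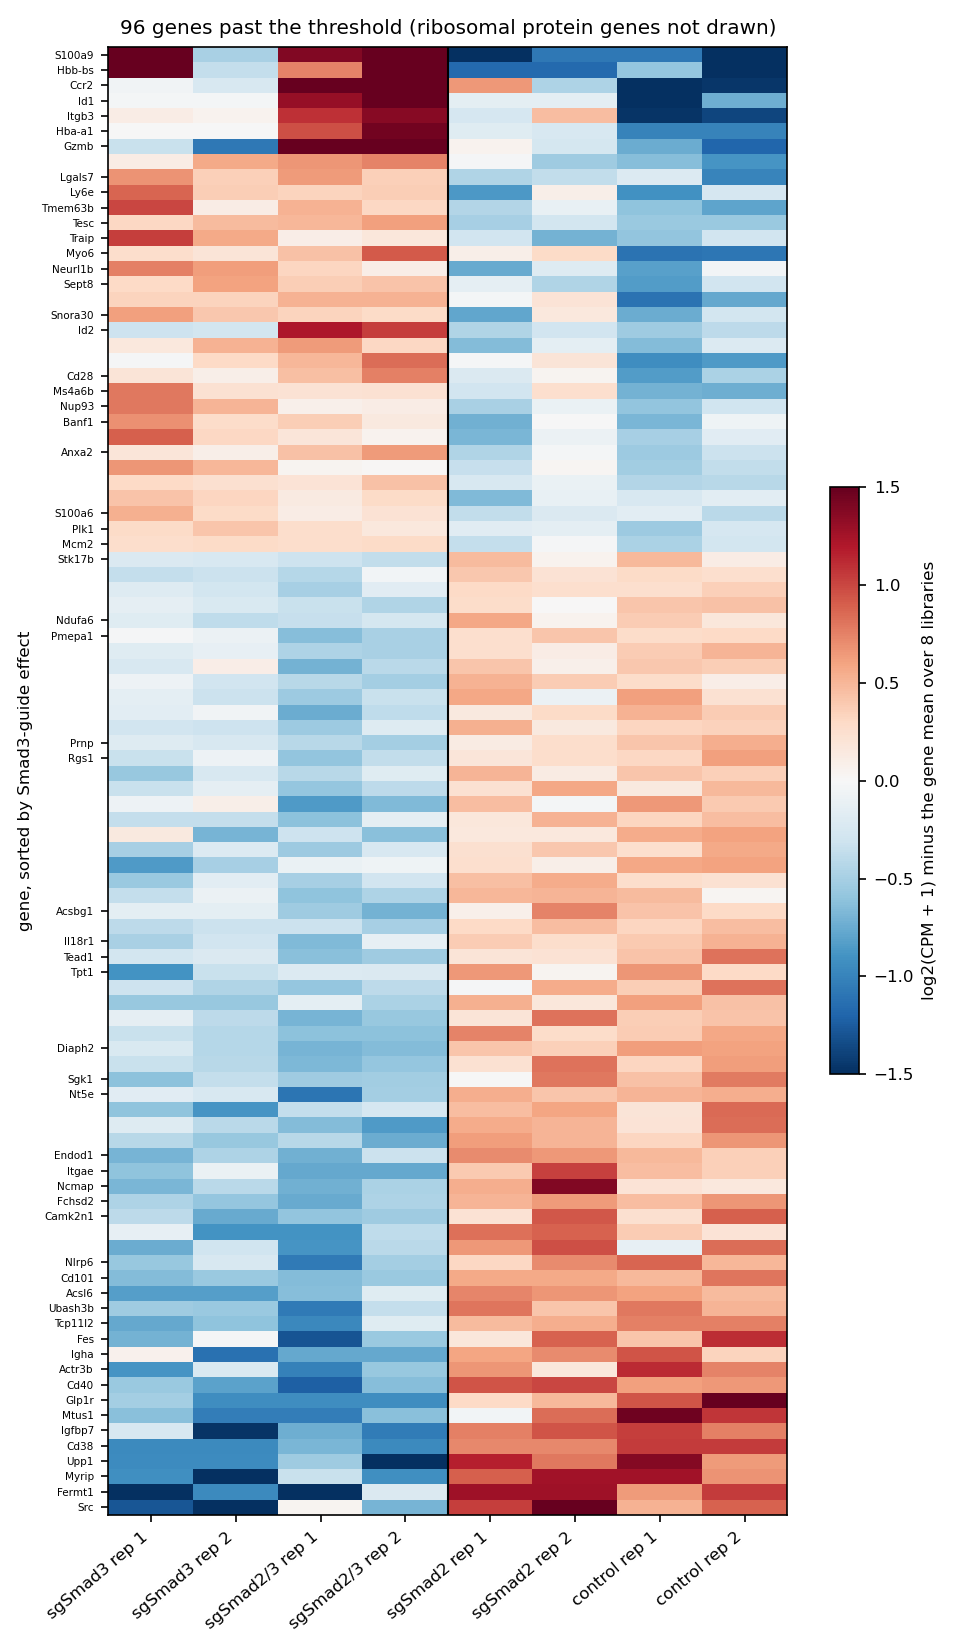
Level of 96 called genes, those for ribosomal proteins not drawn, in each of the 8 libraries, as log2(CPM + 1) minus the gene's mean over the 8 (colour, red above and blue below), with genes sorted by the Smad3-guide effect and the 4 libraries with a Smad3 guide left of the black line. Genes named in the text are labelled. The 33 higher genes fill the top and 63 lower genes the bottom, and some of the top genes are high mainly in the sgSmad2/3 libraries.

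Acsl6 (ENSMUSG00000020333, protein coding, chr11:54303805-54364756), the gene named in the question of the series, fell in cultures with a Smad3 guide. It had 27 and 27 CPM in sgSmad3, 31 and 43 in sgSmad2/3, 82 and 78 in sgSmad2, and 75 and 68 in control libraries. Every library with a Smad3 guide was below every one without, and the sgSmad2 libraries were the highest of all. The mean was 32.0 ± 7.57 CPM with the guide and 75.8 ± 5.91 without (SD, n = 4 each), a 2.36-fold decrease (-1.24, SE 0.15, adjusted p = 0.00099). Its change was -1.37 (SE 0.22) for sgSmad3 against control and -1.11 (SE 0.22) for sgSmad2/3 against sgSmad2. Acsl6 was called in all 8 fits that left out 1 library, with changes of -1.36 to -1.13. Without the uneven pair it was -1.36 with an adjusted p of 0.54. Acsbg1 (ENSMUSG00000032281, protein coding, chr9:54604886-54661885), an enzyme of the bubblegum family of acyl-CoA synthetases, had 46 and 46 CPM in sgSmad3, 35 and 31 in sgSmad2/3, 54 and 86 in sgSmad2, and 69 and 63 in control libraries. It also separated the groups, and the lowest levels were those of sgSmad2/3. Acsbg1 was 1.70-fold lower (-0.77, SE 0.16, adjusted p = 0.033), and that call was lost in 7 of the 8 fits that left out 1 library. Among 12 tested acyl-CoA synthetases these 2 were the only ones called, against 0.931% called over all genes tested. Acsl5, which had 153 to 180 CPM with the guide and 110 to 145 without, did not pass (0.36, adjusted p = 0.17), and neither did Acsl1, Acsl3 and Acsl4 (-0.04, -0.10 and 0.05).

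**Figure D2:**
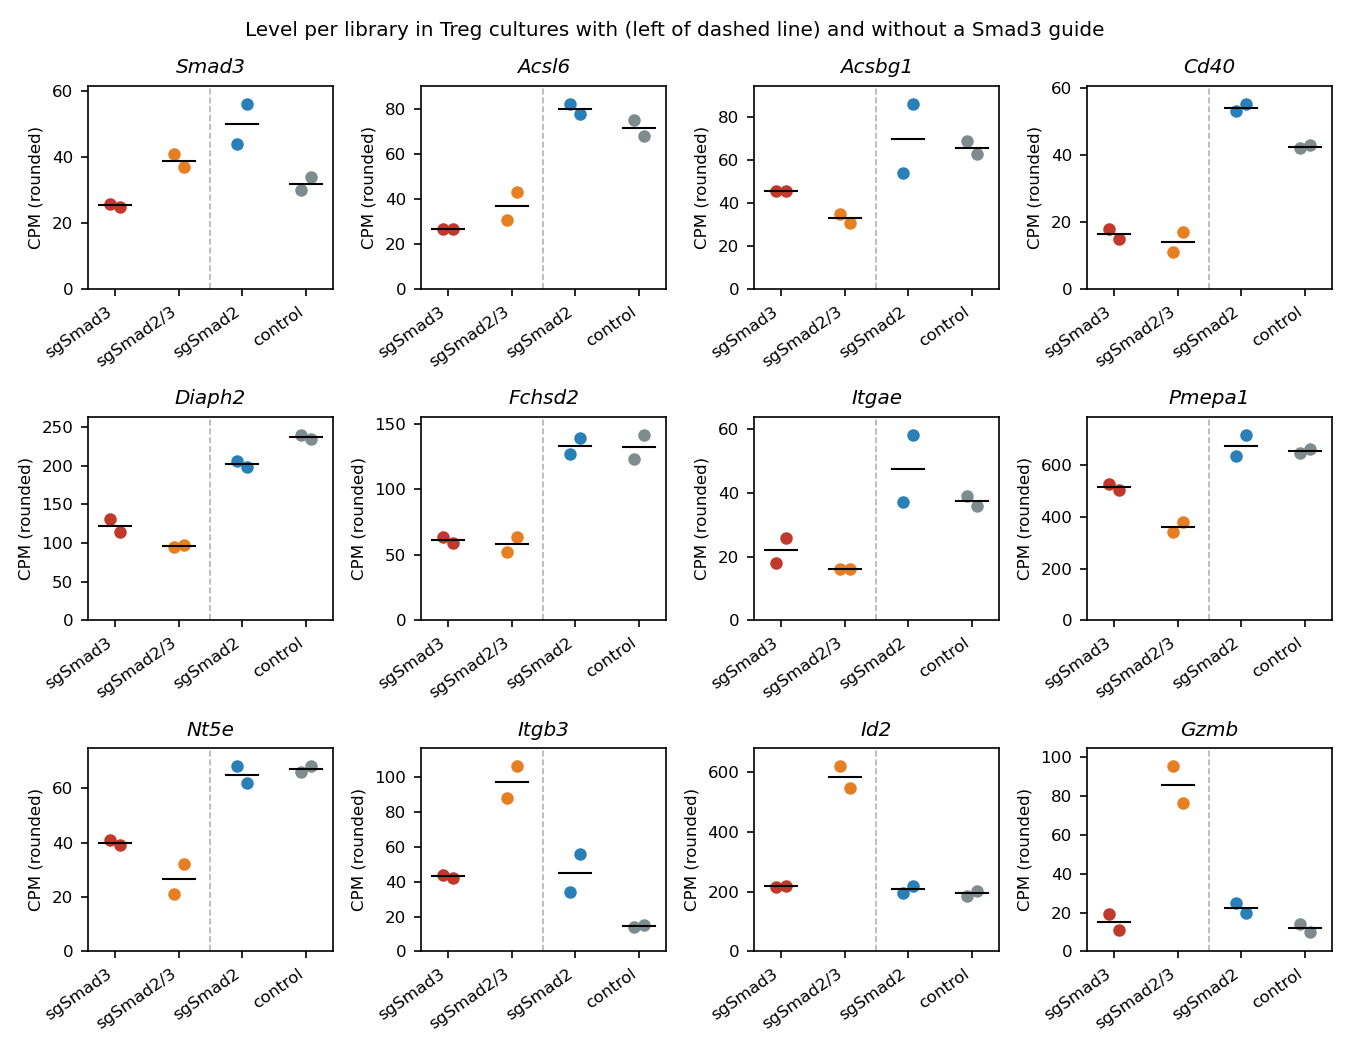
CPM per library (points) and group mean (line) of 12 genes in sgSmad3, sgSmad2/3, sgSmad2 and control cultures, 2 libraries each, with groups that carry a Smad3 guide left of the dashed line. Acsl6, Cd40, Diaph2 and Fchsd2 drop to similar levels in sgSmad3 and sgSmad2/3, Id2 and Gzmb are high in sgSmad2/3 alone, and Smad3 overlaps.

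The other genes whose calls held in every fit that left out 1 library were described because of that, a choice made after their values were seen, except for Cd40 and Ubash3b. Cd40 (chr2:165055614-165071654), a TNF receptor family member best known on antigen-presenting cells, had 18 and 15 CPM in sgSmad3, 11 and 17 in sgSmad2/3, 53 and 55 in sgSmad2, and 42 and 43 in control libraries. The highest library with a Smad3 guide lay far below the lowest without one, and the fold was 3.06 (-1.61, SE 0.19, adjusted p = 0.00061). Diaph2, a formin that builds actin filaments, had 131 and 114, then 95 and 98 CPM in sgSmad3 and sgSmad2/3, against 206 and 198 in sgSmad2 and 239 and 235 in control (2.01-fold lower, log2 SE 0.11, adjusted p = 0.00061). Fchsd2, an F-BAR protein of membrane remodelling, had 64 and 59 CPM in sgSmad3 and 52 and 64 in sgSmad2/3, against 127 and 139 in sgSmad2 and 123 and 141 in control (-1.14, SE 0.13, adjusted p = 0.00061). For both genes the sgSmad3 and sgSmad2/3 cultures were close and no library crossed over. Ubash3b, a phosphatase that restrains antigen receptor signalling, had 40 to 66 CPM in the 4 libraries with the guide and 113 to 148 in the 4 without (-1.26, SE 0.16, adjusted p = 0.0013). Endod1, an endonuclease-domain protein, had 50 to 66 and 107 to 136 CPM in the same order (-1.10, adjusted p = 0.00099).

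The reference sequence before a listed start of 4 of the lower genes is shown so that the Smad letters can be seen against the count over all promoters. The sequences are the 250 bases before the first start listed by RefSeq on GRCm38.p6, plus strand, 5' to 3', and capitals mark AGAC or its reverse complement GTCT. They are Acsl6 (chr11:54303574-54303823), Fchsd2 (chr7:101108525-101108774), Diaph2 (chrX:129749492-129749741) and Nt5e (chr9:88327359-88327608). The listed gene spans begin at 54303805 for Acsl6, 101108499 for Fchsd2 and 129749668 for Diaph2. The windows of Acsl6 and Diaph2 therefore run into the gene span, and that of Fchsd2 lies within it.
Acsl6: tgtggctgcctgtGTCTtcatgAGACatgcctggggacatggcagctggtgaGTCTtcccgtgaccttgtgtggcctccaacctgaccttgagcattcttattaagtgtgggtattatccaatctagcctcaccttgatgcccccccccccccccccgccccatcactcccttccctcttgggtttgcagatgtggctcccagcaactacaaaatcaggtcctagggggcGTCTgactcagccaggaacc
Fchsd2: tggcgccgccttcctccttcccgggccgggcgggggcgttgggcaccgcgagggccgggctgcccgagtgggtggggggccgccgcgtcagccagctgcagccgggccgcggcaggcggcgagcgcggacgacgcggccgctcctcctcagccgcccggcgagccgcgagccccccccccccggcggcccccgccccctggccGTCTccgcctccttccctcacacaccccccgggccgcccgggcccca
Diaph2: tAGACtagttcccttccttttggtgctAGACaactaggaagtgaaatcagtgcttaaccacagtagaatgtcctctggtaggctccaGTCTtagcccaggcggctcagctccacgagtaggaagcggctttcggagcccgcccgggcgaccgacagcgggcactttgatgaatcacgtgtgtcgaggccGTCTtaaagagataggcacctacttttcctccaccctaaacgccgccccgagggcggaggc
Nt5e: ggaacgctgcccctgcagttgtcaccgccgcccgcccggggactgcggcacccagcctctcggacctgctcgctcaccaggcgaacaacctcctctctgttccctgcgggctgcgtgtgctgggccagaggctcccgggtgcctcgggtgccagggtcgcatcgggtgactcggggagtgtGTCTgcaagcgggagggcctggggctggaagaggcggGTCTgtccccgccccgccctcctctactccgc
AGAC on either strand occurred 4 times in the window of Acsl6, 1 time in Fchsd2, 4 times in Diaph2 and 2 times in Nt5e. Of the lower genes 49 of 67 had a window, and 38 of these (77.6%) held AGAC. Of the higher genes 24 of 33 had one, and 19 (79.2%) held it, against 80.6% of the 7924 tested genes with a window. The palindrome GTCTAGAC was in no window of a called gene and in 0.215% of all windows. GGCGC on either strand was in 46.9% of the lower, 54.2% of the higher and 58.4% of all windows. The 3 shares of AGAC are close to each other, and no match within 250 bases says anything about sites elsewhere.

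TGF-beta feedback genes and targets were taken next. Of 21 tested members 2 were lower (Pmepa1 and Itgae) and 2 were higher (Id1 and Id2), with a list median of -0.30. Over all genes tested 0.624% were lower and 0.307% higher. At an unadjusted limma p below 0.05, 8 members were lower and 3 higher, against 682 and 913 of all 10737 genes. Pmepa1, a membrane protein that dampens TGF-beta signalling, had 529 and 504 CPM in sgSmad3, 343 and 381 in sgSmad2/3, 637 and 716 in sgSmad2, and 647 and 662 in control libraries. The groups did not overlap, and the sgSmad2/3 cultures were lowest (-0.62, SE 0.11, adjusted p = 0.010). Itgae, the alpha chain that pairs with beta 7 to bind E-cadherin, had 18 and 26, then 16 and 16 CPM in sgSmad3 and sgSmad2/3, against 37 and 58 in sgSmad2 and 39 and 36 in control (-1.12, SE 0.20, adjusted p = 0.011). With 1 library left out Pmepa1 was called in 5 and Itgae in 4 of 8 fits. The inhibitory Smad7 did not pass, with 124 to 170 CPM with the guide and 132 to 190 without (-0.21, adjusted p = 0.51). Skil, another negative regulator, had 192 to 307 and 297 to 391 CPM in the same order (-0.54, adjusted p = 0.053), and Ski, Ldlrad4 and Spsb1 did not pass (-0.21, -0.56 and -0.35). None of 17 tested ligands, receptors and mediators was called, and of these 1 was higher and 2 were lower at an unadjusted p below 0.05. The smallest p was that of the receptor Bmpr2 (18 to 27 CPM with the guide and 32 to 44 without, -0.69, adjusted p = 0.070). Tgfbr1 and Tgfbr2, the TGF-beta receptors themselves, changed by -0.25 and -0.20 without passing.

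Among 23 tested Treg core genes 2 were lower, Nt5e and Itgae, and none was higher, against 0.624% lower and 0.307% higher over all genes tested. Nt5e, which makes adenosine from AMP, had 41 and 39 CPM in sgSmad3, 21 and 32 in sgSmad2/3, 68 and 62 in sgSmad2, and 66 and 68 in control libraries. It was 2.01-fold lower (-1.01, SE 0.16, adjusted p = 0.0056), with no overlap between the groups, and it was called in 6 of 8 fits with 1 library left out. Foxp3 had 189 to 257 CPM with the guide and 177 to 393 without and did not pass (-0.33, SE 0.19, adjusted p = 0.43). Ctla4 (-0.61, adjusted p = 0.12), Ikzf2 (-0.29, adjusted p = 0.32) and Il2ra (-0.05, adjusted p = 0.87) did not pass either. Of 14 tested tissue Treg genes Id2 and Gzmb were higher and Itgae and Acsbg1 lower, against the same shares over all genes. Il18r1, a receptor chain for IL-18, was the lower one of 11 effector T helper genes and of 29 genes for STATs, SOCS and cytokine receptors, at 45 to 66 CPM with the guide and 87 to 104 without (-0.78, SE 0.15, adjusted p = 0.017). Il18r1 lost its call in 6 of the 8 fits that left out 1 library. Gzmb was the higher one of the effector list.

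Further lower genes encode surface and signalling proteins. Cd38, an enzyme that consumes NAD, had 4 and 4 CPM in sgSmad3, 5 and 4 in sgSmad2/3, 15 and 15 in sgSmad2, and 19 and 19 in control libraries (-1.77, SE 0.26, adjusted p = 0.0042). These are few reads, since 3 reads make 1.87 to 2.32 CPM in these libraries. Cd101, an immunoglobulin family protein, had 14 to 15 CPM with the guide and 32 to 40 without (-1.21, adjusted p = 0.0045). The prion protein Prnp, at 352 to 437 CPM with the guide and 545 to 728 without (-0.68, adjusted p = 0.0054), and the G protein regulator Rgs1, at 289 to 413 and 495 to 665 CPM (-0.68, adjusted p = 0.010), were among the lower genes with the highest levels, as were Stk17b (-0.56) and Tpt1 (-0.83). Sgk1, a kinase that responds to salt and growth factors, had 88 to 105 CPM with the guide and 134 to 235 without (-1.01, adjusted p = 0.0056). Camk2n1, an inhibitor of CaM kinase II, had 67 to 86 and 132 to 218 CPM (-1.14, adjusted p = 0.0045). Nlrp6, an innate sensor, had 16 to 29 and 43 to 64 CPM (-1.19, adjusted p = 0.0056), and Tead1, a DNA-binding partner of YAP, had 61 to 81 and 108 to 167 CPM (-0.82, adjusted p = 0.0056). In all of these the lowest library without the guide lay above the highest with it. Sgk1, Camk2n1, Nlrp6, Cd101 and Tead1 were picked after their values were seen. Src, Fermt1, Myrip, Upp1, Mtus1 and Glp1r had large fitted decreases, but with 0 to 4 CPM in the libraries with a Smad3 guide and 5 to 16 CPM without they rest on few reads, and no fold is given. Igfbp7, Actr3b, Fes, Tcp11l2 and the immunoglobulin constant gene Igha also fell (-1.75, -1.34, -1.28, -1.26 and -1.29). Cd38, Igfbp7, Src, Fermt1, Myrip, Upp1, Mtus1 and Glp1r passed the filter on low values only through libraries without a Smad3 guide. They are high there, and such a passage favours a fitted decrease, so their calls are a description.

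Genes higher with a Smad3 guide showed more than 1 pattern. Itgb3 (chr11:104608000-104670476), the integrin beta 3 chain, had 44 and 42 CPM in sgSmad3, 88 and 106 in sgSmad2/3, 34 and 56 in sgSmad2, and 14 and 15 in control libraries. It was above its matched group in each case, 1.51 (SE 0.25) in sgSmad3 against control and 1.13 (SE 0.25) in sgSmad2/3 against sgSmad2, although the sgSmad2 and sgSmad3 libraries overlapped (1.32, SE 0.18, adjusted p = 0.0016 over all 8). Id2 (chr12:25093799-25096092), which blocks E proteins, had 215 and 220 CPM in sgSmad3, 619 and 548 in sgSmad2/3, 196 and 219 in sgSmad2, and 185 and 204 in control libraries. The sgSmad2/3 cultures stood far above the other 3 groups, so the change over all 8 (0.82, SE 0.11, adjusted p = 0.0016) averages 0.16 in sgSmad3 against control and 1.49 in sgSmad2/3 against sgSmad2. Gzmb had 19 and 11, 95 and 76, 25 and 20, and 14 and 10 CPM in the same order of groups, again high in sgSmad2/3 alone (1.07, SE 0.21, adjusted p = 0.021). Id1 had 12 and 12, 32 and 37, 11 and 11, and 3 and 7 CPM (1.38, adjusted p = 0.016), and Ccr2, which guides cells to inflamed tissue, had 7 and 6, 30 and 26, 12 and 5, and 1 and 2 CPM (1.66, adjusted p = 0.019). The Smad2-guide change, read from the same 8 libraries, was 1.34 for Itgb3 (adjusted p = 0.0049), 0.75 for Id2 (adjusted p = 0.010), 1.67 for Gzmb (adjusted p = 0.0049), 1.90 for Ccr2 (adjusted p = 0.026) and 1.27 for Id1 (adjusted p = 0.11). For the Smad2 guide 11 genes passed (0.102% of those tested), 10 of them higher (0.0931%) and 1 lower (0.00931%). Of the calls in this paragraph for the Smad3 guide, Itgb3 and Id2 were kept in 7 of the 8 fits that left out 1 library, Gzmb and Ccr2 in 3 and Id1 in 2. All 5 lost their call when the libraries were fitted as 2 groups of 4 with no Smad2 term (adjusted p of 0.072 for Itgb3, 0.11 for Id2, 0.27 for Gzmb, 0.13 for Ccr2 and 0.085 for Id1). Gzmb also lost it with the Smad2 guide as an additive term (adjusted p = 0.057).

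The remaining higher genes varied in how the change was shared between sgSmad3 and sgSmad2/3. Tesc, a calcium-binding regulator of proton exchange, had 41 and 46 CPM in sgSmad3, 47 and 51 in sgSmad2/3, 23 and 27 in sgSmad2, and 22 and 22 in control (0.95, SE 0.16, adjusted p = 0.010). Its change was 0.95 both for sgSmad3 against control and for sgSmad2/3 against sgSmad2. Cd28, the main costimulatory receptor of T cells, had 83 to 132 CPM with the guide and 43 to 80 without (0.74, adjusted p = 0.018). Cd28 was the called member of 16 CD4 T cell identity genes, whose sum was 7821 to 8452 CPM with the guide and 6379 to 7712 without. The calcium and lipid binding genes Anxa2 (372 to 544 and 240 to 342 CPM, 0.67, adjusted p = 0.014) and S100a6 (448 to 601 and 314 to 371 CPM, 0.57, adjusted p = 0.020) rose too. Ly6e, a membrane-anchored protein (0.97), and Ms4a6b (0.74) were highest in the first sgSmad3 library. For Ms4a6b the change was 1.23 in sgSmad3 against control and 0.24 in sgSmad2/3 against sgSmad2, where the libraries overlapped. The higher genes also included Nup93 of the nuclear pore (0.74, with 1.09 and 0.39 in the same contrasts), the ubiquitin ligases Neurl1b and Traip (0.90 and 0.94), Banf1, which bridges DNA and the nuclear lamina (0.74), the septin Sept8 (0.86), Lgals7 (1.01), Tmem63b (0.97) and the small nucleolar RNA Snora30 (0.82). Reads of Ms4a6b may be shared with other Ms4a genes. With 1 library left out, the call of Traip was lost in all 8 fits and those of Sept8 and Snora30 in 7. Calls of Banf1, Lgals7, Tmem63b, S100a6 and Ms4a6b were lost in 6 fits. Those of Nup93, Neurl1b, Cd28, Anxa2 and Ly6e were lost in 5 fits, and that of Tesc in 3.

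Among called genes the 2 largest fitted increases were of genes known from other cell types. S100a9, a calcium-binding protein of neutrophils, had 25 and 2 CPM in sgSmad3, 10 and 27 in sgSmad2/3, 0 and 1 in sgSmad2, and 1 and 0 in control libraries (adjusted p = 0.018). The globin gene Hbb-bs had 42 and 6, 14 and 47, 3 and 3, and 5 and 1 CPM (adjusted p = 0.023). Both were highest in the pair of libraries with the highest red cell and myeloid sums. Hbb-bs is itself part of the red cell sum and S100a9 of the myeloid sum, so this match was largely fixed in advance. Both genes passed the filter on low values only through libraries with a Smad3 guide, where they are high, which favours a fitted increase. No fold is given because the libraries without the guide hold few reads. Hba-a1, the alpha globin gene, had 25 and 25, 50 and 70, 22 and 21, and 12 and 12 CPM (1.21, SE 0.18, adjusted p = 0.0045), with 1.09 without that pair. Of 4 tested red cell markers 2 were called, and of 2 tested myeloid markers 1 was, against 0.931% of all genes tested. Alas2, needed for haem synthesis in red cells, was at 0 in all 8. Reads of Hba-a1 and Hbb-bs cannot be told with certainty from those of Hba-a2 and Hbb-bt. The single tested B cell marker, Ighm, had 60 to 86 CPM with the guide and 71 to 94 without (-0.16, adjusted p = 0.66). None of 7 tested CD8, NK and gamma-delta markers was called, 1 of them higher at an unadjusted p below 0.05, and Tcrg-C1 had the smallest p (0.45, adjusted p = 0.20). What part red cell and myeloid transcripts have in the other calls was not tested.

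The effect of the Smad3 guide could be read without the Smad2 guide (sgSmad3 against control) and with it (sgSmad2/3 against sgSmad2), in libraries that do not overlap. In sgSmad3 against control 10 genes were called (0.0931%), 6 higher (0.0559%) and 4 lower (0.0373%). In sgSmad2/3 against sgSmad2 11 genes were called (0.102%), 3 higher (0.0279%) and 8 lower (0.0745%). Fchsd2 and Diaph2 were called in both. All 10 genes called without the Smad2 guide had the same sign with it, 5 of them with an unadjusted p below 0.05, and all 11 called with it had the same sign without it, 9 of them below 0.05. An unadjusted limma p below 0.05 was found for 6.97% of all genes in sgSmad2/3 against sgSmad2 and for 11.3% in sgSmad3 against control. Over all genes the sign was the same in 62.2%, and r was 0.31 over 10737 genes, which are not independent and share 1 experiment. All 100 genes called over the 8 libraries had the same sign in both, which the averaging favours, and 81 exceeded 0.5 in size in each. The difference between the 2 effects, tested with limma as an interaction, was called for no gene, and 312 genes (2.91%) had an unadjusted p below 0.05, among them 10 of the 100. The first gene by p was Id2 (1.32, adjusted p = 0.19). Pou5f2 (2 and 3 CPM in sgSmad2/3 and 19 and 12 in sgSmad2, with 12 and 9 in sgSmad3 and 10 and 7 in control) and Nrn1 (24 and 21, 17 and 15, 7 and 8, and 17 and 23 CPM in the same groups) followed, with adjusted p of 1.0. Set directly against sgSmad2, the sgSmad3 libraries had 5 lower genes and none higher (0.0466% of those tested), namely Acsl6, Endod1, Cd40, Ncmap and Fchsd2. Both groups of that contrast carry a guide.

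**Figure D3:**
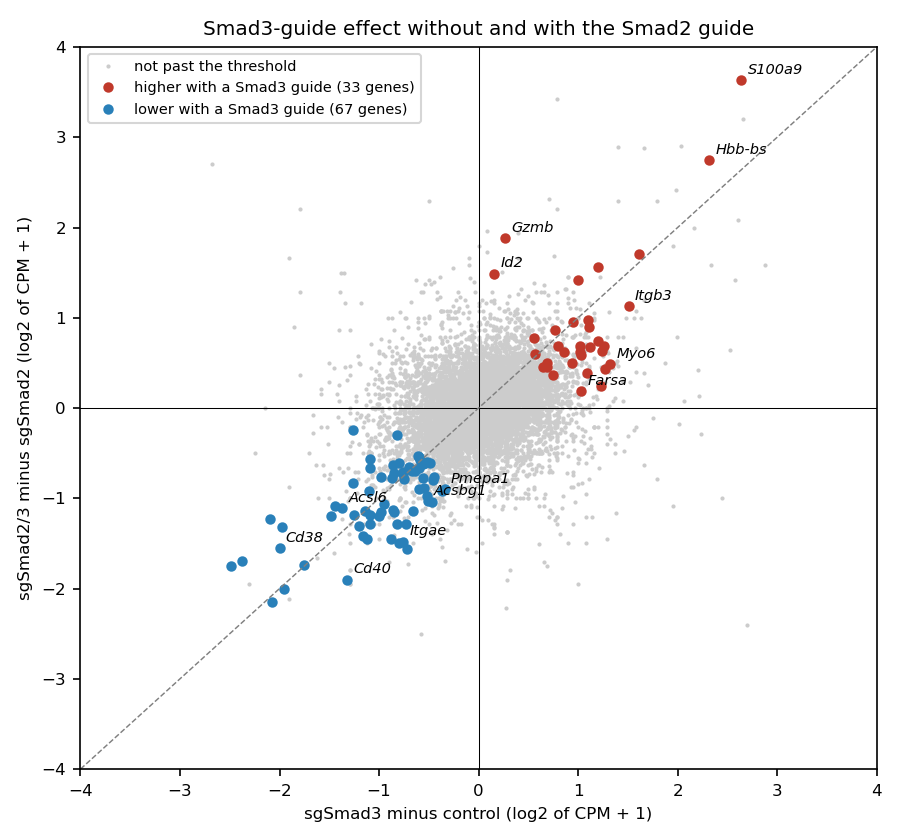
Change of each tested gene for the Smad3 guide without the Smad2 guide (sgSmad3 minus control, horizontal) and with it (sgSmad2/3 minus sgSmad2, vertical), in log2(CPM + 1). The 67 lower and 33 higher genes lie in the matching quadrants, with Id2 and Gzmb near 0 on the horizontal axis and Cd40 and Acsl6 low on both.

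The cell-type experiment of the same series gave a measure independent of these 8 libraries. It holds 3 libraries of Treg cells, cultured with IL-2 and TGF-beta, and 3 of Th0 cells, cultured with IL-2 and no TGF-beta named. Of 10962 genes 453 were higher (4.13%) and 389 lower (3.55%) in Treg than in Th0, 7.68% in all. Of the 67 genes lower with a Smad3 guide, 64 were tested there, and 46 of these (71.9%) were higher in Treg and 1 was lower, while 4.31% of the 10292 genes tested in both tables were higher in Treg. Of the 33 higher genes 32 were tested and 9 (28.1%) were lower in Treg, against 3.39% of all. Read from the other side, 221 tested genes were at least 2-fold higher in Treg. Of these, 37 (16.7%) were lower with a Smad3 guide, none was higher, and 84.6% had a change below 0, with a median of -0.37. Over all genes tested 0.624% were lower with the guide and 45.8% had a change below 0. Of 137 genes at least 2-fold lower in Treg, 7 (5.11%) were higher with the guide, against 0.307% of all genes tested. None was lower, and the median was 0.24. In sgSmad3 against control the medians were -0.33 for the Treg-higher and 0.21 for the Treg-lower genes, and in sgSmad2/3 against sgSmad2 they were -0.44 and 0.26. The Smad2 guide gave medians of -0.24 and 0.30 for the same lists. For that guide 8 of the Treg-lower genes were called higher, of 10 called higher among all genes. Of the Treg-higher genes 1 was called lower for it, of 1 among all genes. The link to the Treg-Th0 difference is thus not particular to the Smad3 guide. Without the first sgSmad3 and second sgSmad2/3 libraries the medians were -0.41 and 0.26, with no gene called.

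Single genes show the size of the link. In Treg cells Acsl6 averaged 47.7 ± 21.0 CPM, against 9.79 ± 1.31 CPM in Th0 cells (SD, n = 3 each), and Acsbg1 averaged 53.2 ± 4.37 and 11.9 ± 4.20. Cd40 averaged 38.9 ± 11.1 CPM in Treg cells, against 0.778 ± 0.676 in Th0 cells, and Itgae 28.3 ± 3.07 against 0.408 ± 0.707. Genes low in Treg cells were Itgb3, at 12.6 ± 6.04 against 70.1 ± 5.66 CPM in Th0 cells, Id2, at 283 ± 52.5 against 796 ± 160, and Gzmb, at 16.1 ± 6.92 against 499 ± 97.3. Over the 8 libraries Acsl6, Acsbg1, Cd40 and Itgae were called lower and Itgb3, Id2 and Gzmb higher with a Smad3 guide, although for Id2 and Gzmb the change in sgSmad3 against control was 0.16 and 0.27 and did not pass. Other genes high in Treg did not pass the test for the guide. Foxp3 (179 ± 36.2 CPM in Treg and 10.4 ± 2.92 in Th0), Smad7 (90.1 ± 5.13 and 14.5 ± 3.37) and Skil (201 ± 6.44 and 23.0 ± 6.46) had changes of -0.33, -0.21 and -0.54. The tables were scaled separately, so levels are compared within each table alone. Over the 10292 genes r between the Smad3-guide change and the Treg-Th0 difference was -0.26. It was -0.16 for sgSmad3 against control, -0.27 for sgSmad2/3 against sgSmad2 and -0.24 for the Smad2 guide. These r values are descriptions over genes.

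**Figure D4:**
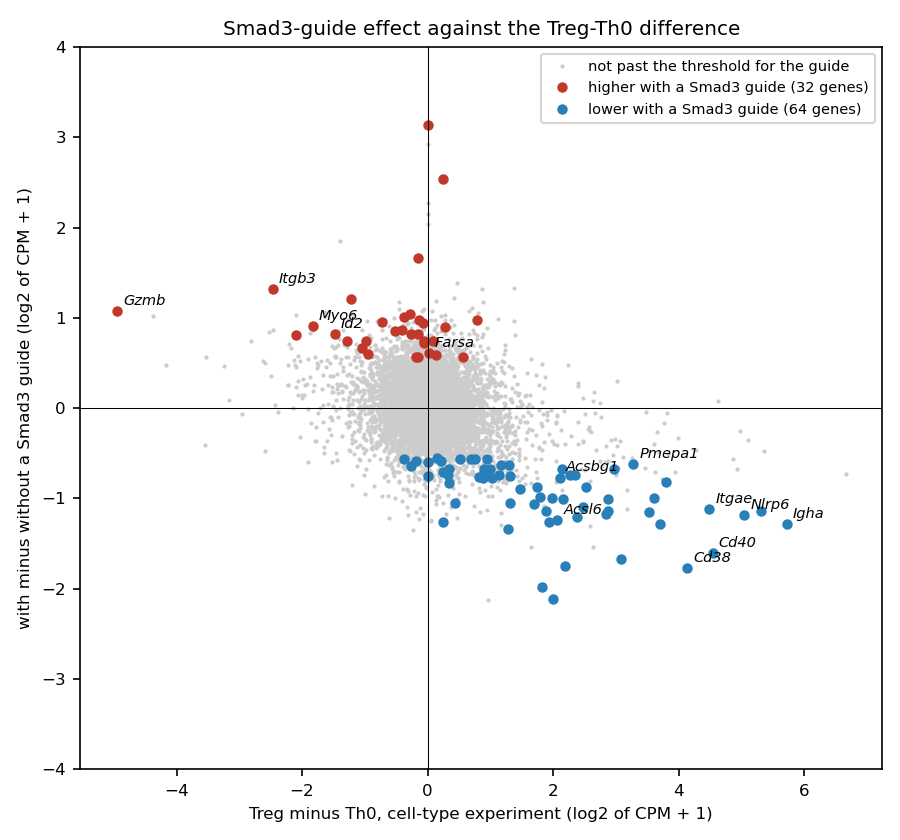
Smad3-guide change over the 8 libraries (vertical) against the difference between Treg and Th0 in the separate cell-type experiment (horizontal), both in log2(CPM + 1), for genes tested in both tables. Most of the 64 lower genes lie to the right, on the Treg side, and Gzmb, Itgb3, Id2 and Myo6 lie at the upper left.

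In the other gene lists few genes were called. As the background for unadjusted counts, 913 of all 10737 genes were higher and 682 lower at an unadjusted p below 0.05 (14.9% in all). No member was called among 22 genes of fatty acid synthesis (4 higher and 0 lower at an unadjusted p below 0.05), 25 of cholesterol synthesis (3 and 0) and 25 of fatty acid oxidation (0 and 1). The smallest p in these lists were of Hacd3 (0.49, adjusted p = 0.13), Srebf2 (0.49, adjusted p = 0.099) and Acox3 (-0.51, adjusted p = 0.32). Of 61 oxidative phosphorylation genes Ndufa6 of complex I was lower (125 to 144 CPM with the guide and 169 to 244 without, -0.59, adjusted p = 0.048), and of 7 genes of the mitochondrial genome none passed, with mt-Nd2 first (0.40, adjusted p = 0.16). Of 23 glycolysis genes none passed, 7 were higher and 1 lower at an unadjusted p below 0.05, and the list median was 0.20 (Pkm 0.52, adjusted p = 0.14). Of 36 cell cycle genes the kinase Plk1 (270 to 322 CPM with the guide and 165 to 218 without, 0.56, adjusted p = 0.025) and the replication helicase subunit Mcm2 (196 to 199 and 117 to 161 CPM, 0.56, adjusted p = 0.037) were higher, 19 were higher at an unadjusted p below 0.05, and the list median was 0.25. The summed cell cycle level was 13516 to 14399 CPM with the guide and 11722 to 12544 without. With 1 library left out, Mcm2 and Ndufa6 lost their calls in 7 of 8 fits and Plk1 in 6. In the TNF superfamily (19 tested) only Cd40 was called, among 15 integrins and adhesion genes Itgb3 was higher and Itgae lower, and among 10 chemokine receptor and trafficking genes Ccr2 was higher. No member was called among 25 naive and quiescence genes (6 higher and 3 lower at an unadjusted p below 0.05), 28 interferon response genes (2 and 4), 16 genes of the integrated stress response (4 and 0), 24 p53 targets (2 and 2) and 20 immediate early genes (1 and 5). The smallest p in these were of Sox4 (-0.69, adjusted p = 0.059), Bst2 (1.02, adjusted p = 0.16), Shmt2 (0.53, adjusted p = 0.082), Bax (0.65, adjusted p = 0.21) and Egr1 (-0.90, adjusted p = 0.10).

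Cytosolic ribosomal protein genes were looked at after their values were seen. Of 79 tested, 40 were lower at an unadjusted p below 0.05, and the median was -0.25. Their summed level was 52685 and 53429 CPM in sgSmad3, 56973 and 55930 in sgSmad2/3, 66361 and 57443 in sgSmad2, and 67676 and 63156 in control libraries. The first control and first sgSmad2 libraries were the highest.

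**Figure D5:**
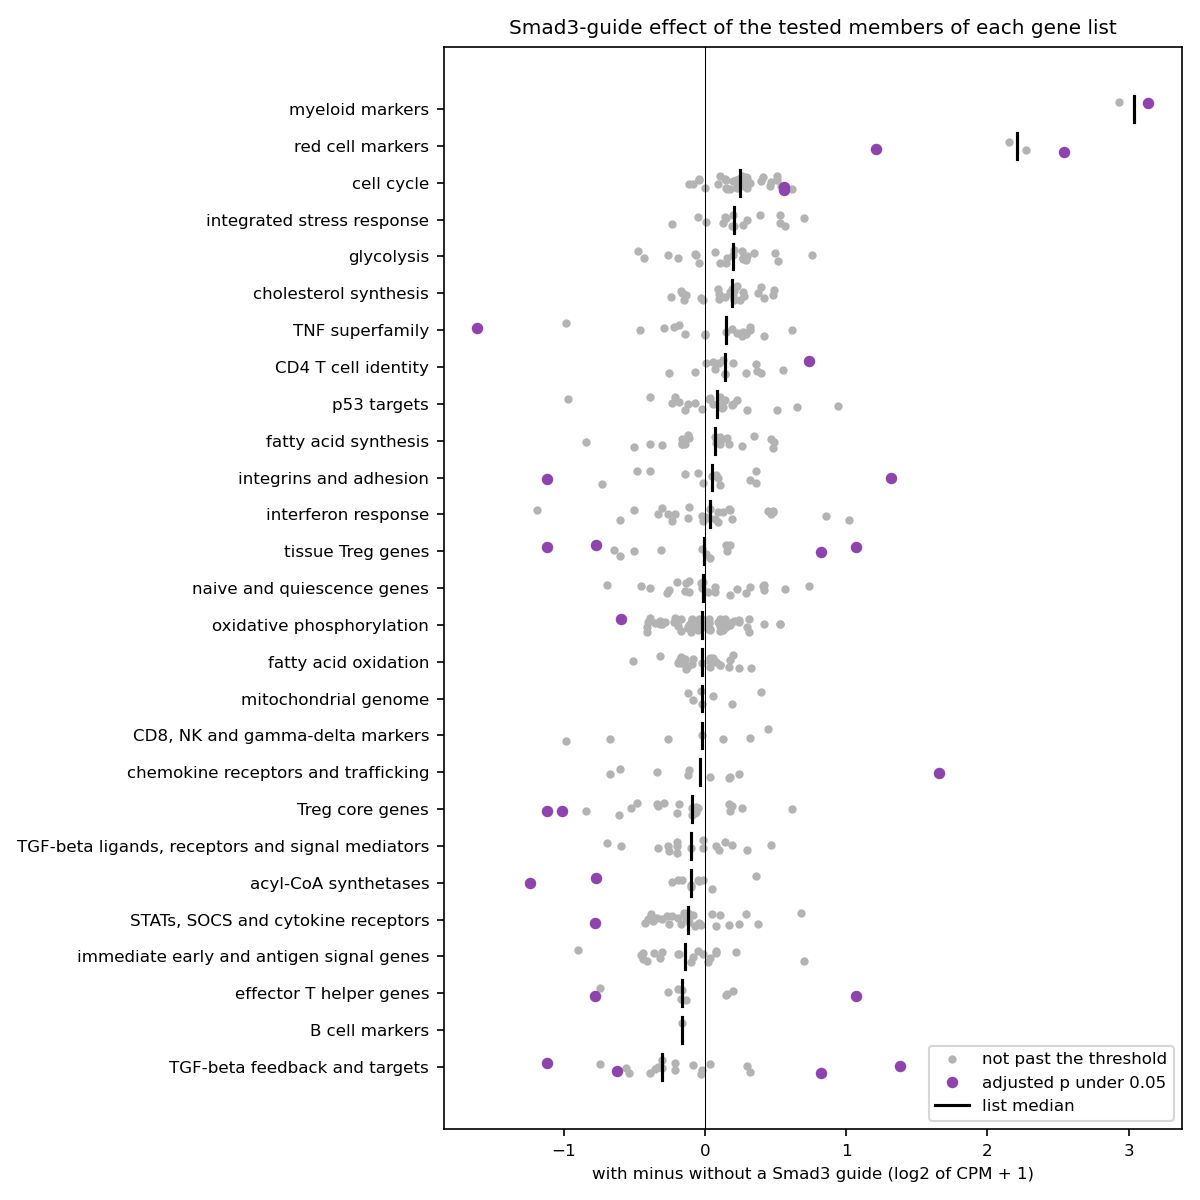
Smad3-guide change of every tested member of 27 gene lists (points, purple where adjusted p was below 0.05) with each list's median (black line), in log2(CPM + 1). Most lists centre near 0, cell cycle genes lie mostly above 0, and the few red cell and myeloid markers lie far above it.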

How the data were processed

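RNA was read with a QuantSeq 3' FWD kit, per the labels' protocols. Without a role or an order, mm10, deepTools, Bowtie2, Subread 2.0.1 and STAR 2.7.9a are listed in the submitters' processing notes. Which annotation and strandedness were used is not given in the sources used here. For the Smad experiment the authors deposited a table under the name TPM, but its values are a score, CPM rounded to whole numbers, and 1 read is worth less than 1 CPM, so reads could not be recovered gene by gene. The last line names no gene, holds the value of 1 read (7.7e-05% of a column or less) and was left out. In the cell-type table the authors deposited CPM, of which 100% of the values were whole multiples of 1 read within 0.01. The design had assumed TPM, and the test for normalized values was kept.

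Genes at 5 or more in at least 2 of the 8 columns were tested (10737 of 22643 above 0) with limma 3.58.1 in R 4.3.3 on log2(CPM + 1), with 4 group means, an intensity trend, two-sided tests and Benjamini-Hochberg adjustment over all genes tested at a threshold of 0.05. Folds on this scale understate the change of genes with few reads. An exact permutation of 4 against 4 libraries could not go below a p of 0.029. The script was tested on simulated data. A floor of 3 reads covers counting error only. The cell-type table was tested in the same way, and edgeR 4.0.16 on the recovered reads was an added alternative. Named genes are Smad3, Smad2, Smad7, Acsl6, Acsbg1 and Foxp3, the 15 largest non-overlapping calls in each direction, the 5 calls with the highest levels in each direction, the 3 smallest interaction p, and the called or first member of each list. The libraries, the rule and the lists were chosen with earlier results of these data known. Promoter letters are from RefSeq. The alternatives were other pseudocounts, filters, scalings, designs and left-out libraries.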

Additional observations from a re-analysis of the deposited data

Results flagged for a closer look

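In 8 cases 1 library of a group of 4 lay further from the other 3 than Dixon's 95% critical value allows, and chance alone gives such a gap in about 1 of 20 groups. All 8 are among the 68 named genes, each with 1 group of 4 with a Smad3 guide and 1 without. Several such gaps can thus arise by chance alone. Among libraries with a Smad3 guide, the second sgSmad3 library had the highest Foxp3 (257 CPM) and Sox4 (50 CPM). The first sgSmad3 library had the highest Ly6e (622 CPM), Ms4a6b (624 CPM) and Glp1r (3 CPM), and the first sgSmad2/3 library the highest Cd38 (5 CPM). For Glp1r and Cd38 the other 3 libraries round to the same whole number, 1 CPM lower, so that any gap passes and these 2 cases carry no weight. Among libraries without a Smad3 guide, the second sgSmad2 library had the highest Itgae (58 CPM) and the second control library the highest Egr1 (133 CPM).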

How the results depend on the processing

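The count of 100 genes for the Smad3 guide became 0 with a filter of 1 or more in 2 columns and 0 with no filter (2355 and 2353 genes at an unadjusted p below 0.05), 2 with no intensity trend, 247 with a replicate block and 157 with the Smad2 guide as an additive term. It stayed within 1.5 times with the other pseudocounts, filter, scalings and the design of 2 groups (88 to 133). Leaving out each library gave 9 to 260, and leaving out the first sgSmad3 and second sgSmad2/3 libraries together, added after seeing the data, gave 0 (782 unadjusted). That pair was also 0 for sgSmad3 against control, sgSmad2/3 against sgSmad2, the Smad2 guide, sgSmad3 against sgSmad2 and the 37 Treg-higher genes called lower. Both weak filters gave 0 for those 5 counts as well. For sgSmad3 against control (10 genes) no intensity trend gave 2, the replicate block 27 and single left-out libraries 0 to 12. For sgSmad2/3 against sgSmad2 (11) they gave 0, 29 and 0 to 8. For the Smad2 guide (11) they gave 0, 18 and 0 to 8. For sgSmad3 against sgSmad2 (5) no trend gave 1 and left-out libraries 0 to 3. For the 37 Treg-higher genes they gave 1 and 8 to 30. The count of 842 genes for Treg against Th0 (cell-type table) was 508 with no trend, 1096 with edgeR and 615 to 692 with 1 library left out. The interaction stayed at 0 in every setting run. The medians of the Treg-higher and Treg-lower genes kept their sign, at -0.41 to -0.33 and 0.21 to 0.29 with libraries left out. The change of Smad2, which was not called in any setting run, lay between -0.43 and 0.04 with 1 library left out, above 0 only without the second sgSmad2 library. Among single named genes 450 of the values under an alternative lost their call and 17 gained one. The causes were not tested. Whether same-numbered libraries were paired is not stated. Over genes, the departures of the first libraries from their group means correlated at 0.26 between control and sgSmad2. In the other pairs of groups these r were 0.015 to 0.049, all positive. The main test did not pair same-numbered libraries. The replicate block kept all 100 calls and is given for counts alone. The share of called lower genes that were higher in Treg lay between 36.8% and 100% with 1 library left out. At these depths genes below about 2 CPM rest on 3 reads or fewer.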
